A study of Mus musculus and Homo sapiens with 12 samples.

Results

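SIRT7 is a sirtuin of the cell nucleus that removes acyl groups, including acetyl marks on histone H3 such as H3K18Ac, and removal of that mark goes with repression of genes. The title of the series links SIRT7 to LINE-1 (L1) elements, retrotransposons that make up a large share of mammalian DNA and gather in gene-poor chromatin at the nuclear lamina, the protein mesh that lines the nuclear envelope. Full-length L1 copies are several kilobases long, whereas most copies are cut short at one end.

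The regions described here are the stretches of 1 Mb in which SIRT7 peaks lay most densely on the autosomes of mouse embryonic fibroblasts (MEFs). Chromosomes 1 to 19 of build mm9 were divided into bins of 1 Mb from base 0, each peak was assigned by its midpoint, and bins with 50 or more peaks were called dense. The rule found 136 dense bins, 5.63% of the 2414 autosomal bins that held a peak, and 7439 peaks in them, 11.4% of the 65422 autosomal peaks, of 72622 MEF peaks in all and 116941 in both lists of the series. The remaining 2278 occupied bins, called other bins, held 57983 peaks.

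The positions of SIRT7 on chromatin were taken by ChIP-seq, sequencing of DNA that an antibody to the protein pulls down, in wild-type MEFs of strain 129s2, isolated from embryos of day 14.5 and used at passages 2 to 3. The series held 12 samples in 7 groups. The MEF peaks came as 1 list recorded under replicate 1 of 2. The other groups (H3K18Ac in wild-type and SirT7-/- MEFs, SIRT7 and H3K18Ac in K562 cells, and an input for each cell type) were not analysed here. A peak list has no expression values, so the labelled cell type was not checked against markers, and read depth is unknown. With 1 list there is no replicate error and no test, and brackets below give 95% intervals, which cover counting error alone and treat peaks or bins as independent.

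The dense bins were chosen by their number of peaks, which is therefore given as a description. The dense bins held 50 to 67 peaks with a median of 54, where the median occupied bin held 26 and the middle 50% held 15 to 38. They were the end of one continuous distribution: 75 of them held 50 to 54 peaks, 45 held 55 to 59 and 16 held 60 or more. Just inside the threshold lay 32 bins with 50 or 51 peaks, and just outside it 59 bins with 48 or 49. The first had a median peak width of 1049 bp and 9.33% of their length covered by peaks, the second 1037 bp and 9.23%.

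**Figure D1:**
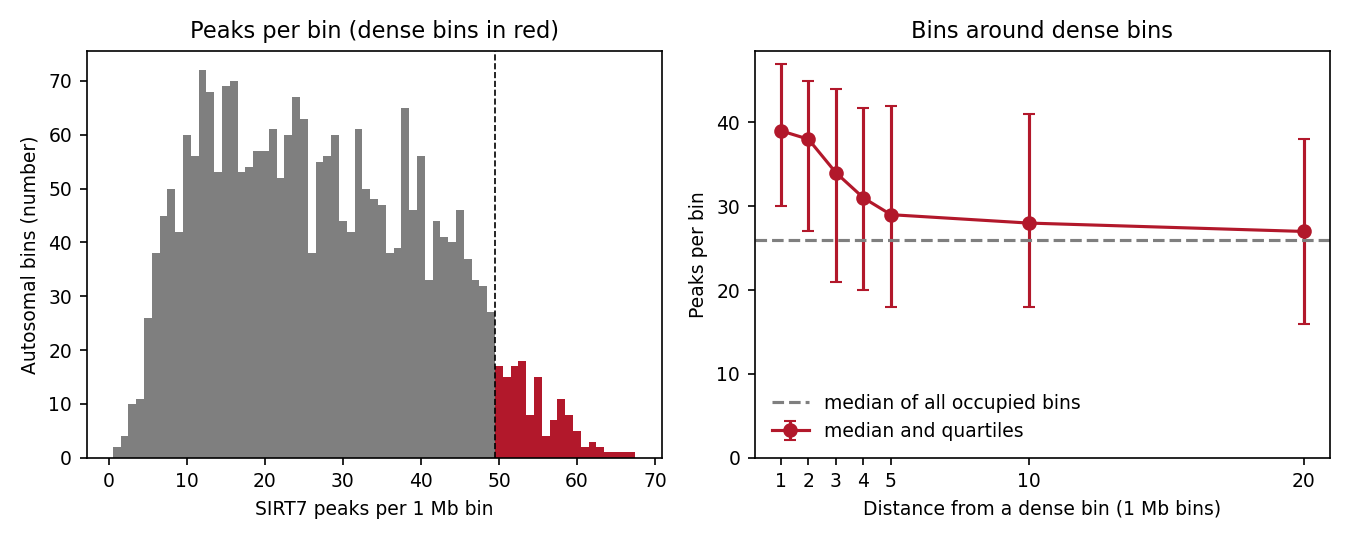
Left, the number of occupied autosomal bins of 1 Mb (y axis) by the number of SIRT7 peaks in the bin (x axis), with the 136 dense bins in red right of the dashed threshold. Right, the median number of peaks with quartiles (y axis) in bins at a given distance from a dense bin (x axis): 39 beside a dense bin, 29 at 5 bins and 27 at 20 bins, against 26 over all occupied bins (dashed).

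Dense bins occurred on all 19 autosomes, unevenly. Chromosomes 1, 3, 4, 6 and 7 each had over 8% of their bins dense and together held 75 of the 136 (55.1%) in 32.9% of the occupied bins. The excess of this group follows from choosing it by its own share and is given as a description. Chromosome 4 had the highest share, 10.5% (6.10 to 16.4), followed by chromosome 7 with 9.72% (5.42 to 15.8) and chromosome 1 with 9.33% (5.62 to 14.3). The lowest shares were 1.64% (0.199 to 5.80) on chromosome 9 and 1.68% (0.204 to 5.94) on chromosome 11. The share did not simply follow the mean number of peaks of a chromosome. Chromosome 7, with 26.97 peaks per occupied bin, had 14 dense bins, whereas chromosome 12, with 28.3, and chromosome 14, with 27.6, had 4 each.

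Each dense bin is located here by its first base in Mb on mm9. Chromosome 1 held 18, beginning at 7, 8, 30, 46, 47, 48, 96, 98, 99, 100, 103, 113, 114, 116, 119, 144, 145 and 149 Mb. Of these, 9 lay between 96 and 120 Mb. The 16 of chromosome 4 began at 4, 15, 21, 24, 27, 37, 39, 66, 71, 72, 73, 74, 79, 96, 110 and 121 Mb. On chromosome 3 there were 14, at 11, 12, 20, 22, 44, 47, 49, 59, 61, 73, 74, 98, 134 and 158 Mb. The 14 of chromosome 7 stood at 5, 12, 14, 21, 22, 23, 34, 49, 55, 61, 100, 110, 113 and 115 Mb. Chromosome 6 had 13, at 7, 10, 11, 20, 25, 57, 64, 66, 68, 69, 107, 123 and 131 Mb. On these 5 chromosomes dense bins came back repeatedly along the length, with stretches free of them in between.

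The other 14 autosomes had 2 to 9 dense bins each. Chromosome 2 had 9, at 15, 39, 47, 53, 55, 56, 89, 98 and 110 Mb. The 8 of chromosome 5 lay at 6, 7, 18, 61, 85, 105, 109 and 146 Mb, and the 7 of chromosome 13 at 14, 33, 61, 66, 78, 86 and 87 Mb. Chromosomes 8 and 10 had 6 each, on 8 at 4, 5, 22, 62, 68 and 76 Mb and on 10 at 46, 47, 49, 50, 78 and 105 Mb. In the latter, 4 of the 6 fell within 5 Mb. Chromosomes 12, 14 and 17 had 4 each, on 12 at 60, 63, 65 and 116 Mb, on 14 at 53, 92, 110 and 124 Mb and on 17 at 22, 39, 40 and 55 Mb. The 3 of chromosome 15 began at 19, 29 and 33 Mb. Of the chromosomes with 2, chromosome 9 had them at 19 and 81 Mb, 11 at 48 and 73 Mb, 16 at 19 and 47 Mb, 18 at 3 and 90 Mb and 19 at 9 and 39 Mb.

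Mouse autosomes have their centromere at the start of the numbering, and dense bins were least frequent towards the opposite end. Between the first and the last peak of a chromosome, 7.48% (5.30 to 10.2) of the bins in the first 20% of the span were dense, 6.50% (4.46 to 9.10) in the next 20%, 7.92% (5.66 to 10.7) in the middle, 4.34% (2.71 to 6.56) after it and 2.03% (0.979 to 3.71) in the last 20%. The number of peaks fell along the chromosomes as well, from a median of 33 per bin in the first 20% of the span to 17 in the last. Only 10 dense bins lay in the last 20%, among them the bins at 158 Mb of chromosome 3, 124 Mb of chromosome 14 and 90 Mb of chromosome 18, beyond 99% of the span. In the 10 Mb after the first peak 16 of 189 bins were dense, and in the 10 Mb before the last peak 5 of 190.

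**Figure D2:**
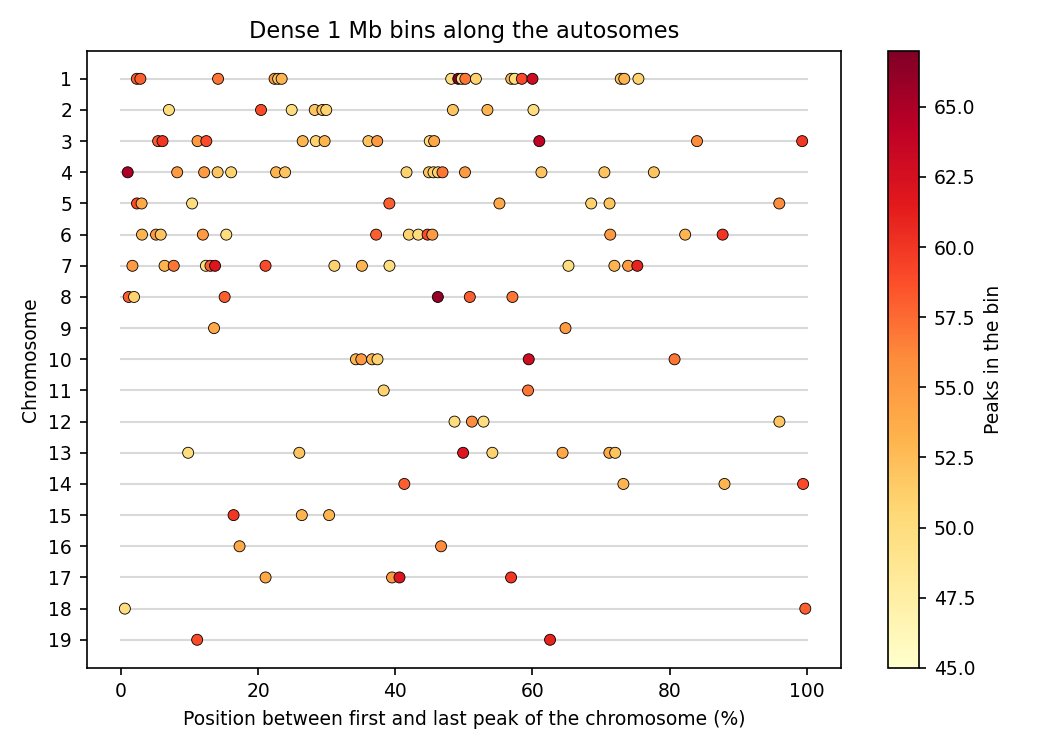
Each point is 1 of the 136 dense bins, placed by the position of its centre between the first and last peak of its chromosome (x axis, percent) on the row of its chromosome (y axis) and coloured by its number of peaks, 50 to 67. Points thin out to the right, where the last 20% of the spans holds 10 dense bins.

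Most dense bins did not adjoin one another. Of the 136, 95 stood alone (69.9%, 61.4 to 77.4) and 41 (30.1%, 22.6 to 38.6) had a dense bin directly before or after, in 14 pairs, 3 runs of 3 bins and 1 run of 4. Among the 251 occupied bins that bordered a dense bin, 41 were themselves dense (16.3%, 11.98 to 21.5), against 5.63% of all occupied bins, and a further 79 held 40 to 49 peaks (31.5%, 25.8 to 37.6), against 16.1% (14.7 to 17.6) of all. The surroundings were thus rich in peaks as well. Bins next to a dense bin had a median of 39 peaks, bins 2 away 38, bins 3 away 34 and bins 5 away 29, where the median over all occupied bins was 26. Of the 95 lone dense bins, 54 bordered a bin with 40 to 49 peaks, and 7 had neighbours with fewer peaks than the median occupied bin on both sides. The 7 include the bin at 22 Mb of chromosome 8, where the bin before it held no peak and was counted as 0.

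The longest run spanned 71 to 75 Mb of chromosome 4, with 211 peaks in 4 bins. Its peaks had a median width of 1212 bp, a median gap of 9379 bp and a median score of 142, and the bins on either side held 48 and 25 peaks. The runs of 3 bins covered 46 to 49 Mb of chromosome 1 (160 peaks), 98 to 101 Mb of chromosome 1 (174 peaks) and 21 to 24 Mb of chromosome 7 (170 peaks). They were unlike one another. The median width was 1124 bp in the first, 961 bp in the second and 1316 bp in the one on chromosome 7, whose median score of 92.6 was the lowest of the 18 runs of 2 or more bins. The bins bordering the runs of 3 held 37 and 40, 45 and 46, and 29 and 48 peaks.

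The 10 densest autosomal bins lay on 8 chromosomes. The bin at 98 Mb of chromosome 1 had 67 peaks, the bin at 62 Mb of chromosome 8 had 66, the bin at 4 Mb of chromosome 4 had 65 and the bin at 98 Mb of chromosome 3 had 64. The bins at 119 Mb of chromosome 1 and 78 Mb of chromosome 10 had 63 each. The bins at 23 Mb of chromosome 7, 61 Mb of chromosome 13 and 40 Mb of chromosome 17 had 62 each, and the bin at 115 Mb of chromosome 7 had 61, tied with 39 Mb of chromosome 19. Their surroundings ranged widely. The bin at 78 Mb of chromosome 10 stood between bins of 10 and 7 peaks, whereas the bin at 40 Mb of chromosome 17 stood between bins of 55 and 49.

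The make-up of these bins by width also differed. In the bin at 98 Mb of chromosome 1, 1 of 67 peaks was 5250 to 6250 bp wide, a range that holds a second, smaller group of widths in the list and lies near the length of full-length L1 copies, and the median width was 877 bp. In the bin at 62 Mb of chromosome 8 that range held 11 of 66 peaks, with a median width of 1130 bp. Peaks covered 8.51% of the first bin and 13.4% of the second, so nearly equal numbers of peaks took up different lengths of DNA.

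Peak width was not used to choose the bins. Peaks in dense bins were somewhat wider than in other bins, with a median of 1077 bp (1049 to 1106) and quartiles of 691 and 2244 bp against 965 bp (957 to 974) and quartiles of 654 and 2136 bp. The median was higher in dense than in other bins on 16 of the 19 autosomes and lower on chromosomes 4, 9 and 12. Among dense bins the median width ran from 696 bp at 15 Mb of chromosome 4, where 39 of 55 peaks were under 1 kb, to 2042 bp at 66 Mb of chromosome 13, where 7 of 51 were. In 99 of the 136 dense bins (72.8%, 64.5 to 80.1) it exceeded 965 bp, the median of peaks in other bins, as it did in 1067 of the 2278 other bins (46.8%, 44.8 to 48.9).

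The shift came from the middle of the width range. Peaks of 1 to 2 kb made up 24.8% (23.8 to 25.8) of the peaks in dense bins and 21.8% (21.4 to 22.1) in other bins, and peaks of 2000 to 5250 bp made up 16.9% (16.1 to 17.8) and 14.2% (13.9 to 14.4). Peaks under 1 kb were fewer in proportion, 46.8% (45.6 to 47.9) against 51.5% (51.1 to 51.9). Peaks of 6250 bp or wider were also fewer in proportion, 93 peaks or 1.25% (1.01 to 1.53) against 2.15% (2.04 to 2.27). For these 4 classes the intervals of the groups did not overlap.

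Pooled over bins, peaks of 5250 to 6250 bp took the same share to within counting error. They numbered 764 in dense bins, 10.3% (9.59 to 10.98), and 6054 in other bins, 10.4% (10.2 to 10.7). The share was higher in dense bins on 11 autosomes and lower on 8. Taken bin by bin, it was 9.80% (8.62 to 10.3) in the median dense bin and 9.09% (8.70 to 9.38) in the median other bin. The commonest step of 50 bp above 4.5 kb was 5950 to 6000 bp in both groups. Between single dense bins the share ran from 1.49% at 98 Mb of chromosome 1 to 25.5% at 5 Mb of chromosome 7, where 14 of 55 peaks fell in the range.

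Counted per Mb, every width class was thus more frequent in dense bins, which the rule ensures for the total (54.7 peaks per Mb against 25.5, a ratio of 2.15), but not equally. The ratio of dense to other bins was 1.95 for peaks under 1 kb, 2.45 for 1 to 2 kb, 2.57 for 2000 to 5250 bp and 2.11 for 5250 to 6250 bp. For peaks of 6250 bp or wider it was 1.25, from 0.684 and 0.548 per Mb. On the autosomes, the widest peaks were therefore the class whose frequency differed least between dense and other bins.

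**Figure D3:**
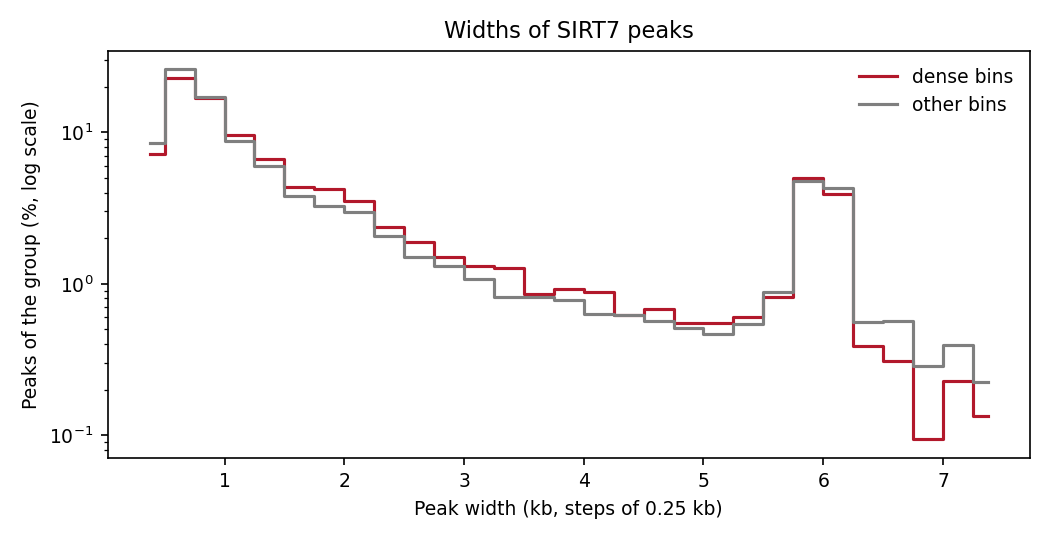
Share of the peaks of dense bins (red) and of other bins (grey) in each step of 0.25 kb of peak width up to 7.5 kb (x axis), in percent on a log scale (y axis). The curves meet at 5250 to 6250 bp (10.3% and 10.4% of peaks), red lies above grey over most steps between 1000 and 5250 bp, and it lies below grey beyond 6250 bp (1.25% and 2.15%).

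Over classes of bins with rising numbers of peaks, these shares changed step by step. Peaks of 6250 bp or wider made up 3.84% of peaks in bins with 1 to 9 peaks, 2.42% in bins with 20 to 29, 1.71% in bins with 40 to 49 and 0.803% in bins with 60 or more. Peaks of 5250 to 6250 bp rose from 5.02% in bins with 1 to 9 peaks to 11.6% in bins with 30 to 39, and stood at 10.8% in bins with 40 to 49, 10.6% in bins with 55 to 59 and 8.84% in bins with 60 or more. That class thus had its highest share in bins below the dense ones. Across the 2387 bins with 5 or more peaks, Spearman's rho between the number of peaks and the median width was 0.31, and among the 136 dense bins it was 0.13. Between the number of peaks and the share of peaks 5250 to 6250 bp wide, rho was 0.29 and -0.005. These points come from 1 library and are given as a description.

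Peaks covered 10.3% of the dense bins (SD over bins 1.71, n = 136 bins) and 4.71% of the other bins, a ratio of 2.19 that was close to the ratio of peak numbers. Coverage ran from 6.81% to 15.6% over the dense bins. Peaks of 5250 to 6250 bp supplied 32.4% of the covered length in dense bins and 33.5% in other bins.

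Spacing within a bin largely follows from the number of peaks that chose it. The median gap from the end of a peak to the start of the next in the same bin was 10194 bp (9867 to 10565) over 7303 gaps in dense bins and 18252 bp (18001 to 18516) over 55705 gaps in other bins. It was shorter in dense bins on all 19 autosomes. A neighbour within 10 kb was found for 74.8% (73.8 to 75.8) of peaks in dense bins and 54.7% (54.3 to 55.1) in other bins, and a gap over 50 kb made up 5.15% and 20.3% of gaps. Over single dense bins the median gap ran from 6104 to 15931 bp. The tightest gap was 1 bp, found in 4 dense bins, at 59 Mb of chromosome 3, 96 Mb of chromosome 4, 10 Mb of chromosome 6 and 61 Mb of chromosome 7. The one on chromosome 4 lay between a peak from 96748157 to 96749558 and one starting at 96749560. The widest was 282675 bp, at 4 Mb of chromosome 8 after a peak from 4089709 to 4091164.

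Scaled to the bin's own mean gap, the spacing of dense bins was not tighter. The median gap was 66.3% (63.9 to 68.3) of the mean gap in the median dense bin, 64.5% (63.6 to 65.1) in the median other bin and 65.8% (64.9 to 67.7) in the median bin with 40 to 49 peaks. In steps of 100 kb, 124 of 136 dense bins (91.2%, 85.1 to 95.4) had no empty step, as did 733 of 2278 other bins (32.2%, 30.3 to 34.1), a contrast that the number of peaks largely fixes. The fullest step held a median of 9 peaks, with a range of 7 to 14. The ratio of variance to mean over the 10 steps had a median of 0.998 (0.889 to 1.08) in dense bins and 1.19 (1.15 to 1.22) in other bins. In bins with 40 to 49 peaks it was 1.04 (0.995 to 1.11), an interval that overlaps that of dense bins.

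**Figure D4:**
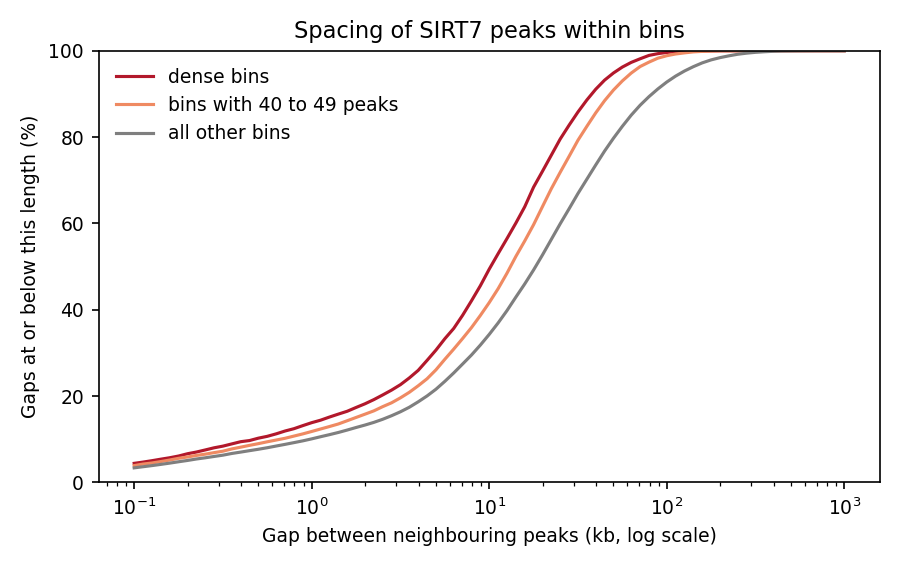
Cumulative share of gaps (y axis, percent) at or below a given length in kb on a log scale (x axis) in dense bins (red), in bins with 40 to 49 peaks (orange) and in all other bins, which include the orange ones (grey). Medians are 10194, 13221 and 18252 bp, and the order of the curves is the same at all lengths from 1 to 100 kb.

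Very short gaps were also more frequent in dense bins, which follows in part from the number of peaks that chose them. Such gaps bear on the count itself, since a stretch called as several close peaks counts more than once. Gaps under 1 kb made up 13.8% of gaps in dense bins (1011), 11.8% in bins with 40 to 49 peaks and 10.1% in other bins (5618). In dense bins 47.8% of these short gaps were under 200 bp, and in other bins 50.4%. Once peaks closer than 1 kb were joined, the same 136 bins held 47.3 joined peaks per Mb against 23.0 in other bins, and 35 of them still reached 50. The joined peaks of dense bins were more often 5250 to 6250 bp wide, 13.6% (12.8 to 14.5) against 12.2% (11.96 to 12.5), so the near-equal share of that class given above held for the peaks as deposited and not for the joined ones.

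The score is the authors' own value per peak, a larger score in MACS meaning a smaller p-value, with a minimum of 50 in the list. Peaks in dense bins scored lower, with a median of 133 (129 to 136) against 148 (147 to 150) in other bins. The median was lower in dense bins on 17 of 19 autosomes and higher on chromosomes 16 and 17. Bins with 40 to 49 peaks lay in between, at 142 (139 to 144). The median of single dense bins ran from 79.3 at 23 Mb of chromosome 7 to 207 at 110 Mb of chromosome 4.

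The difference lay mainly in peaks of middle width. Peaks of 1 to 2 kb had a median score of 158 (152 to 165) in dense bins and 226 (221 to 229) in other bins, and those of 2000 to 5250 bp 215 (205 to 223) and 309 (303 to 316), at nearly the same median widths of 1347 and 1325 bp and of 2876 and 2847 bp. The lower score of the first class appeared on all 19 autosomes and that of the second on 18. Peaks under 1 kb scored 90.3 (87.7 to 92.8) and 95.7 (94.8 to 96.5), and those of 5250 to 6250 bp 264 (260 to 270) and 279 (278 to 280), smaller differences. Peaks of 6250 bp or wider scored 155 (139 to 178) and 160 (154 to 166), with overlapping intervals. In 116 of 136 dense bins the median score of peaks 1000 to 5250 bp wide was below 254, the median of such peaks in other bins, as it was in 755 of the 1696 other bins with 5 or more such peaks.

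Over all widths the score had no steady trend with the number of peaks per bin: the median was 127 in bins with 1 to 9 peaks, 158 in bins with 20 to 29, 142 in bins with 40 to 49 and 122 in bins with 60 or more, and Spearman's rho between the number of peaks and the bin's median score was -0.03 across the 2387 bins with 5 or more peaks. Within the middle widths it fell from each class of bins to the next. For peaks of 1000 to 5250 bp the median was 333 (315 to 351) in bins with 1 to 9 peaks, 280 (272 to 287) in bins with 20 to 29 and 221 (215 to 227) in bins with 40 to 49. Within the dense bins it was 191 (180 to 204) with 50 to 54 peaks, 172 (165 to 182) with 55 to 59 and 158 (145 to 178) with 60 or more. The width range pooled here was chosen after its scores were seen.

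**Figure D5:**
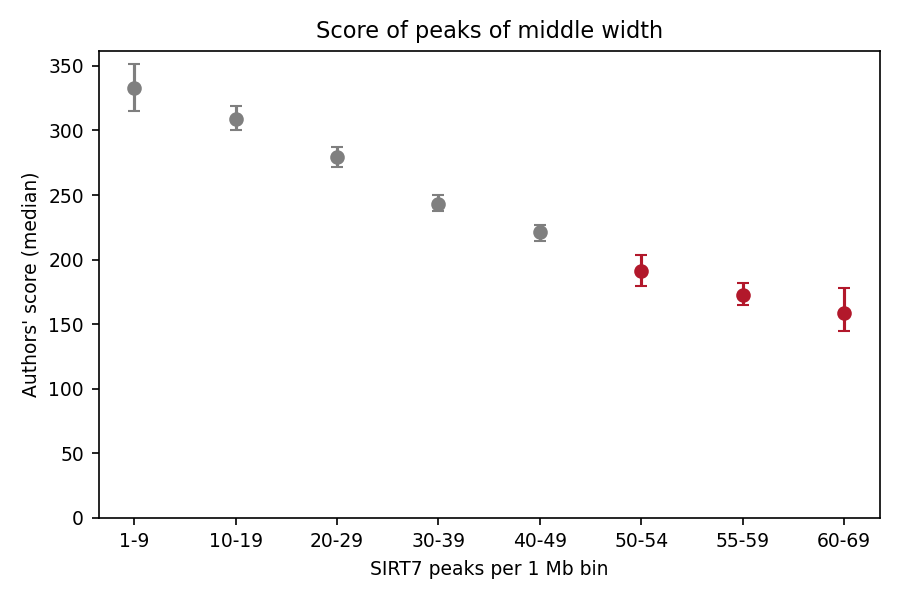
Median authors' score of peaks 1000 to 5250 bp wide (y axis) with its 95% interval by the number of SIRT7 peaks in their 1 Mb bin (x axis), dense bins in red. The median falls from 333 in bins with 1 to 9 peaks to 158 in bins with 60 or more.

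The dense bins with the lowest scores are named here after their values were seen. The 5 lowest medians included all 3 bins of the run at 21 to 24 Mb of chromosome 7, with 98.6, 89.9 and 79.3. They also included the bin at 66 Mb of chromosome 13 with 85.4, which had the widest median peak of all dense bins, and the bin at 146 Mb of chromosome 5 with 98.4, which stood between bins of 11 and 15 peaks. The highest score within the bin at 23 Mb of chromosome 7 was 239.9. High scores of single peaks lay elsewhere. The highest in dense bins was 2413, on chromosome 17 from 39983198 to 39985259, followed by 2181 and 1176 in the bin at 98 Mb of chromosome 2, from 98506024 to 98507861 and from 98501995 to 98503324. The widest peaks of the dense bins had scores of 52.0 (chromosome 19 from 9903067 to 9911803, 8737 bp), 73.1 (chromosome 10 from 78776961 to 78785100, 8140 bp) and 108 (chromosome 7 from 61274922 to 61282878, 7957 bp).

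Some dense bins held recurring pairs, that is, 2 neighbouring peaks with the same widths and the same gap as 2 others of the list. Their sequences were not compared. Of the 7439 peaks in dense bins, 30 belonged to such pairs (0.403%, 0.272 to 0.575), against 44 of 57983 in other bins (0.0759%, 0.0551 to 0.102). A peak was counted only together with its neighbour and a matching pair, so the peaks were not independent and these intervals are too narrow. The 30 peaks sat in 4 dense bins: 14 in the bin at 22 Mb of chromosome 7, 9 in the adjoining bin at 23 Mb, 4 at 113 Mb of chromosome 7 and 3 at 121 Mb of chromosome 4. Leaving out all recurring pairs kept 134 of the 136 dense bins. How reads that map to several places were handled is not given in the sources used here, and its part in these counts was not tested.

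The X chromosome, which the rule left out, had 58 bins with 50 or more peaks among 164 occupied ones. Their make-up was near that of the autosomal dense bins in spacing and in the share of the 5250 to 6250 bp class and differed in width. The median gap was 9950 bp (9370 to 10518) on X and 10194 bp on the autosomes, the class took 9.41% (8.44 to 10.4) and 10.3% of peaks, and the median score was 136 (132 to 141) and 133. Peaks under 1 kb made up 51.5% (49.8 to 53.2) of peaks in the X bins against 46.8% in the autosomal dense bins, and the median width was 962 bp (931 to 1011) against 1077 bp. Within X, peaks of 1 to 2 kb made up 21.5% in these bins and 21.1% in the other X bins. For peaks of 2000 to 5250 bp the shares were 15.8% and 14.2%. The share of peaks of 6250 bp or wider went the other way from the autosomes, with 1.78% (1.36 to 2.28) and 1.33% (0.989 to 1.76). Counted per Mb the direction was the same, with 1.03 and 0.462 on X and 0.684 and 0.548 on the autosomes. In each of these classes the intervals of the X shares overlapped. The lower score of autosomal dense bins had no counterpart over all widths on X, where the median was 136 in these bins and 137 (131 to 142) in the other X bins. By width, peaks of 1 to 2 kb scored 180 (170 to 193) in these bins and 218 (197 to 233) in the other X bins, intervals that did not overlap. Peaks of 2000 to 5250 bp scored 248 (229 to 281) and 265 (232 to 315), and those of 5250 to 6250 bp 297 (288 to 302) and 298 (292 to 304), with overlapping intervals in both classes.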

How the data were processed

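SIRT7 ChIP-seq peaks of wild-type MEFs were analysed from 1 deposited list on build mm9. Tools listed in the submitters' processing notes include MACS 1.4.2, Bowtie and Trimmomatic 0.36, without settings. Neither the control nor any pooling of replicates is stated in the sources. Each line of the deposited list has a position and the score that the authors obtained for the peak, on which MACS ranks peaks by p-value. Depth per sample is unknown. With 1 list there is no replicate error, so intervals cover counting error only.

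Peaks were assigned by midpoint to bins of 1 Mb, and bins with 50 or more peaks on chromosomes 1 to 19 were members. Bins without a peak were left out. Gaps were taken between neighbouring peaks with midpoints in the same bin, and near neighbours regardless of bin. Medians carry binomial order-statistic intervals and shares exact Clopper-Pearson intervals, at 95%. No test was run, because there was 1 list. Positions count from 1. The calculations were tested on simulated data with planted dense bins. The scripts ran in Python 3.11.15 with scipy 1.17.1 for the intervals, pandas 2.3.3, numpy 2.4.6 and matplotlib 3.10.9.

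The members and the width classes were chosen with earlier results of these data known. Regions were named by rule: every dense bin, with more values for the 10 densest, runs of 3 or more, the extremes of median width, the 3 highest scored and 3 widest peaks, and the tightest and widest gap. Alternatives were another bin start, thresholds of 45 and 55, bins of 500 kb and 2 Mb, merging, leaving out chromosome 1, a score of at least 100, leaving out the widest 1% and leaving out recurring pairs. No genome or annotation of mm9 was used here, so no genes, repeats or sequences are given. The K562 list entered only as its number of peaks.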

Additional observations from a re-analysis of the deposited data

How the results depend on the processing

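Peaks in dense bins were wider and lower scored than in other bins under every setting run. They were also closer together, which the number of peaks that chose the bins largely fixes. Leaving out chromosome 1, the widest 1% or recurring pairs kept each value within its 95% interval, with 118 to 136 dense bins. The number of dense bins was 311 with a threshold of 45, 61 with a threshold of 55, 35 after merging peaks closer than 1 kb, 477 in 500 kb bins with 25 or more peaks and 31 in 2 Mb bins with 100 or more. The share that adjoined another dense bin was 47.3%, 16.4%, 11.4% and 46.3% in the first 4 of these. There the other bins numbered 2103, 2353, 2379 and 4313, so the share of all bins that were dense differed too. In 2 Mb bins 25.8% of the dense bins adjoined another, beside 1190 other bins. How far the adjoining share follows the share of bins that were dense was not tested. The direction of the share of peaks 5250 to 6250 bp wide reversed under 4 settings, where dense bins exceeded other bins: 10.7% against 10.4% with bins starting at 500 kb, 10.48% against 10.4% with a threshold of 45, 15.1% against 12.3% after merging and 15.5% against 15.2% for scores of at least 100. It was 9.57% in 2 Mb bins. Other than after merging, these groups differed by less than 1 percentage point, and the cause of the reversals was not tested. The median width was 1046 bp with a threshold of 45, 1308 bp after merging and 1489 bp for scores of at least 100. The median gap was 10766 bp with bins starting at 500 kb, 11440 bp and 9259 bp with thresholds of 45 and 55, 11056 bp after merging, 10747 bp in 2 Mb bins and 17596 bp for scores of at least 100. In the same order, a neighbour within 10 kb was found for 72.6%, 70.9%, 77.97%, 69.7%, 72.97% and 51.8% of peaks. The median score was 137 with bins starting at 500 kb, 135.98 and 129 with thresholds of 45 and 55, 146 after merging and 204 for scores of at least 100. The covered share was 9.44% and 10.99% with those thresholds, 12.0% after merging, 9.90% in 2 Mb bins and 8.26% for scores of at least 100, which keeps fewer peaks by construction. No paired analysis was possible because peaks of wild-type MEFs came in 1 list rather than 1 per replicate. Unknown read depth limits every number, width and score of peaks.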
